A study of Arabidopsis thaliana with 4 samples.

Results

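SWEET genes encode small membrane proteins that let sugars move down their gradient, across either the plasma membrane or the tonoplast, the membrane of the vacuole. The signals of 8 of them, SWEET1, SWEET2, SWEET4, SWEET10, SWEET11, SWEET13, SWEET16 and SWEET17, were followed in Arabidopsis thaliana leaves given flavin adenine dinucleotide (FAD), the flavin cofactor of many oxidoreductases. They are 8 of the 17 SWEET loci of the species, of which 16 had a probe set under their own name or a synonym in the annotation used. They are also 8 of the 13356 genes with a probe set of their own there. That annotation did not list 8730 probe sets, so a gene without one here may still be on the array. The 8 were chosen by symbol in the platform annotation from a list drawn up with earlier results of these arrays known, including a lower SWEET2 signal on FAD. They are also the SWEET genes whose probe set passed the filter on dim signals, and none of the other 8 SWEET genes with a probe set passed it, so that brightness marks the choice and is not a result. Each of the 8 genes had a single probe set in the annotation, so the rule of taking the brightest one per gene removed nothing.

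The tested leaves had been laid for 1 h on 0.1 mM FAD, and the mock leaves for 1 h on water alone. In both groups they were detached rosette leaves of 3-week-old wild-type plants of the Col-0 accession, grown in 16 h of light and taken 4 h after the lights came on. There were 2 biological replicates of each treatment, each measured on 1 Affymetrix array, which gave 4 arrays with 22746 probe sets besides the controls. Leaves kept on the plant and leaves before the incubation were not analysed here, so a difference is one between leaves on FAD and leaves on water.

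Sugars made in the mesophyll are loaded into the phloem, and clade III SWEET proteins such as SWEET11 export sucrose from phloem parenchyma for this loading. The family falls into 4 clades. Clade I and clade II proteins move mainly hexoses, clade III proteins mainly sucrose, and clade IV proteins sit in the tonoplast, where they exchange sugars, fructose among them, between vacuole and cytosol. SWEET2 belongs to clade I by sequence but lies in the tonoplast as well.

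Signals are scaled intensities on a linear scale, and the median probe set signal ranged between 118.4 and 133.7 over the 4 arrays. The scaling had given the arrays the same trimmed mean, so close medians say little about how alike they were. The leaf genes RCA, PRK, SBPASE and LHCB4.1, which serve photosynthesis, read at least 10599.8 on every array, and the root gene EXPA7, the anther gene AMS and the centromeric histone gene HTR12 were below the filter with at most 53.3, 23.4 and 54.8. FAD replicate 2 stood apart in the first set of 9 spike-in probe sets, whose signals there were lower by a median factor of 5.6 against the median of the other 3. For the same spike-ins a second set of 9 probe sets differed by a median of 0.11 on the log2 scale. SWEET log2 fold changes that its omission moves by over 1.5 times are therefore also given without it.

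**Figure D1:**
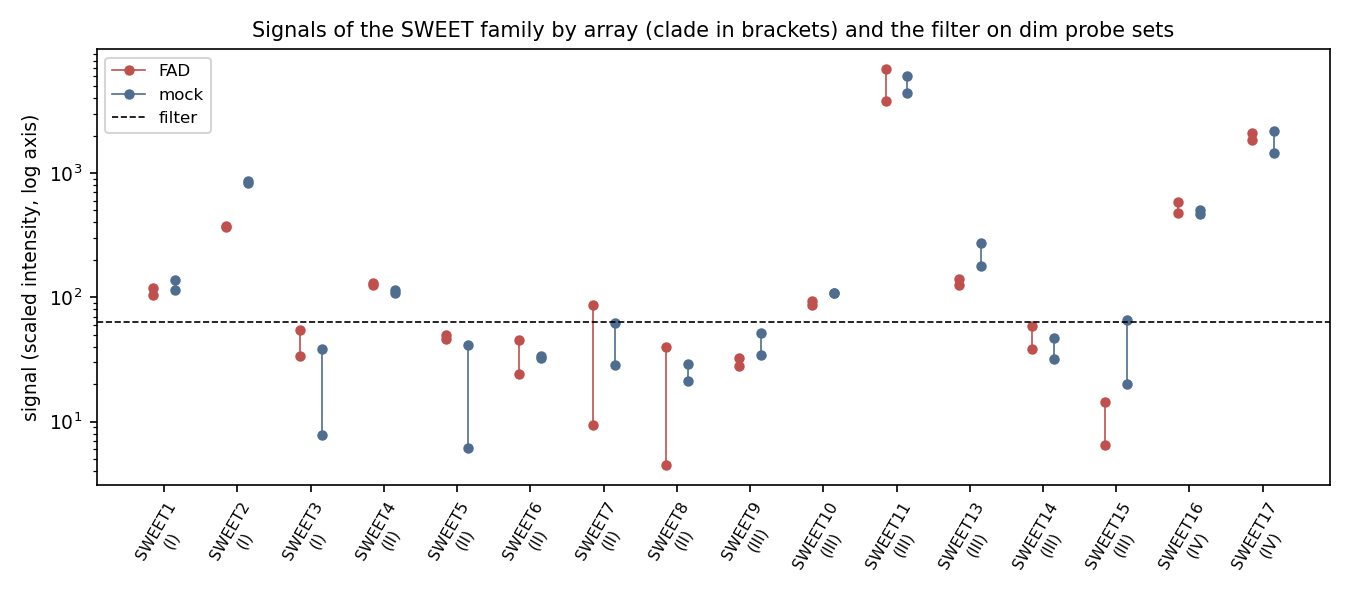
Signals of the 16 SWEET genes with a probe set (scaled intensity, log axis), with FAD arrays in red to the left of mock arrays in blue, lines joining the 2 arrays of a treatment, clades in brackets and the filter as a dashed line. The 8 genes described stand above the filter on all 4 arrays, and the other 8 lie mostly below it.

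The filter kept probe sets whose geometric mean signal over the 4 arrays was at least 63.6. Just inside it stood SWEET10 with a geometric mean of 99, and just outside it SWEET14 with 42.9. The clade I gene SWEET3, the clade II genes SWEET5 to SWEET8 and the clade III genes SWEET9, SWEET14 and SWEET15 were outside. SWEET5 is the pollen gene AtVEX1 of the annotation, SWEET8 serves pollen formation, SWEET9 nectar secretion, and SWEET15 is the senescence-associated gene SAG29. On single arrays their signals reached at most 86.9, for SWEET7 on FAD replicate 2, where FAD replicate 1 read 9.37. SWEET12, the partner of SWEET11 in phloem loading, was not analysed here. Different probe sets bind their targets with different strength, so signals of different genes are not ranked as transcript amounts. In a leaf sample, fewer cells that use a gene and less of its RNA per cell cannot be told apart.

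SWEET2 (AT3G14770) had signals of 370.9 and 373.7 in leaves on FAD, against 826.6 and 857 in mock leaves. The treatments did not overlap, with FAD below mock, and the arrays of each treatment lay close together. SWEET2 moves hexoses across the tonoplast and is known from roots, where it limits the loss of sugars to the soil. The means were 372.3 ± 2 on FAD and 841.8 ± 21.5 in mock leaves (SD, n = 2 each), a ratio of mock over FAD of 2.26. The log2 fold change was -1.18 with a standard error of 0.18 and a 95% confidence interval from -1.59 to -0.77 (limma, Benjamini-Hochberg adjusted p = 0.147 over all tested probe sets). The difference thus did not pass the threshold of 0.05 in this main fit. In a fit with a term for the replicate number it did (limma adjusted p = 0.0036), and what a number shares is not stated. That fit called 153 tested probe sets lower and 36 higher, against 5 and 0 in the main fit. Because SWEET2 was known to be low on FAD before it was listed, its values are a description.

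Among the 13648 tested probe sets SWEET2 was 20th in order of unadjusted p, and 70 of them, 0.513%, had a log2 fold change at least as low, SWEET2 included. It was the 1 SWEET gene of the 8 with both FAD arrays at least 2-fold below both mock arrays, against 0.256% of all tested probe sets; the listing used this contrast, so nothing is read from the count. The closest pair of arrays, FAD replicate 2 and mock replicate 1, still differed by a ratio of 2.21. The log2 difference was -1.16 between the arrays numbered 1 and -1.20 between those numbered 2. Without FAD replicate 2 the log2 fold change was -1.18, the same size as with the array that stood apart. The ratio of 3' to 5' signal of the actin control, which depends on RNA integrity, was 23.6 and 27.5 on FAD and 31 and 33 in mock leaves for the first probe pair, and 2 of 6 such ratios separated the treatments; their part in the SWEET2 difference was not tested.

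**Figure D2:**
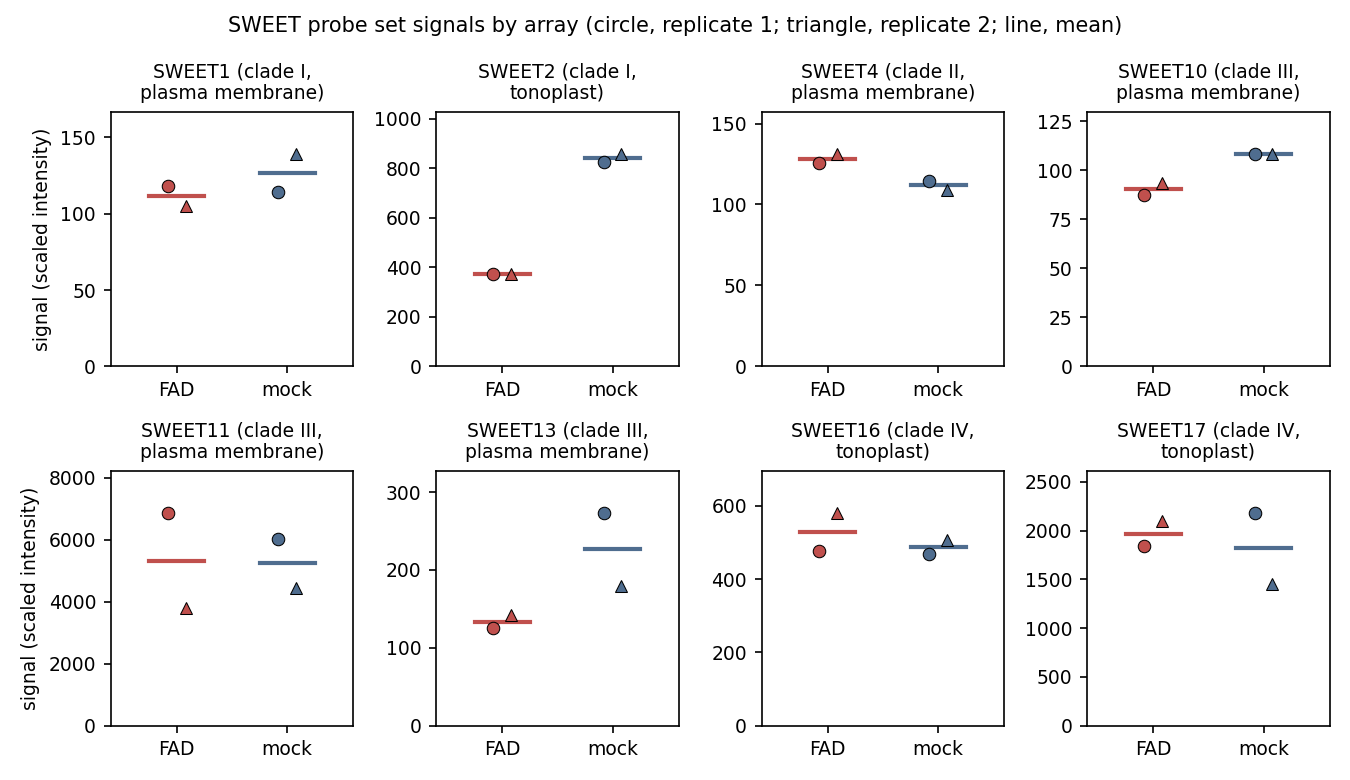
Signal of each of the 8 SWEET genes on each array (scaled intensity, linear axis from 0), with FAD left of mock, circles for replicate 1, triangles for replicate 2 and lines for the means of 2 arrays. SWEET2 reads 370.9 and 373.7 on FAD against 826.6 and 857 in mock leaves, and SWEET11 is higher on replicate 1 in both treatments.

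SWEET1 (AT1G21460), the other clade I gene, encodes a plasma membrane glucose transporter. Its signals were 117.9 and 105.1 on FAD and 113.9 and 139 in mock leaves. The groups overlapped, with mock replicate 2 highest. Its log2 fold change of -0.18 had a 95% confidence interval from -0.82 to 0.47 (limma adjusted p = 0.935), so a change as large as a ratio of 0.565 or 1.38 of FAD over mock lies within the interval. Without FAD replicate 2 the log2 fold change was -0.094. SWEET1 and SWEET2 share a clade but not a membrane, and the difference between their 2 contrasts was not tested.

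SWEET4 (AT3G28007), a plasma membrane hexose transporter of clade II that is used in veins, read 125.3 and 131.2 on FAD and 114.6 and 109.1 in mock leaves. Here both FAD arrays lay above both mock arrays, the sole such case among the 8 genes. The ratio of FAD over mock was 1.15, and on the log2 scale this is 0.20, with an interval from -0.42 to 0.81 (limma adjusted p = 0.917). Of all tested probe sets 22% had both FAD arrays above both mock arrays.

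Of the clade III sucrose transporters of the plasma membrane, SWEET13 and SWEET10 were lower on each FAD array than on either mock array, and SWEET11 overlapped. SWEET13 (AT5G50800) read 125.7 and 141.5 on FAD, against 272.8 and 180 in mock leaves. The 2 mock arrays were themselves 1.52-fold apart. The log2 fold change was -0.73 with a standard error of 0.28 and a 95% confidence interval from -1.39 to -0.08 (limma adjusted p = 0.656, unadjusted p = 0.0326). Without mock replicate 1, the highest of the 4 arrays, it was -0.43, and without mock replicate 2 it was -1.03, so its size depends on which mock array is used.

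SWEET13 and SWEET10 lie side by side in the reference annotation, with 0 protein-coding genes between them. SWEET10 (AT5G50790) is known from the shoot apex, where it comes on as plants turn to flowering. It read 87.5 and 93.6 on FAD and 108.2 and 108.3 in mock leaves. Its log2 fold change was -0.26, with a confidence interval from -0.92 to 0.41 (limma adjusted p = 0.888), a ratio of mock over FAD of 1.2. On FAD replicate 2 was the higher array for both genes, by 0.17 on the log2 scale for SWEET13 and 0.097 for SWEET10. In mock leaves replicate 2 minus replicate 1 was -0.60 for SWEET13 and 0.00093 for SWEET10.

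SWEET11 (AT3G48740) exports sucrose from phloem parenchyma for loading and was brighter than at least 95.8% of the probe sets on every array. Its signals were 6852 and 3787 on FAD and 6029 and 4438 in mock leaves. Replicate 1 was the higher one in both treatments, by a ratio of 1.81 on FAD and 1.36 in mock leaves, and the treatments overlapped. The mean ratio of replicate 1 over replicate 2 was 1.57, while that of FAD over mock was 0.985. The log2 fold change was -0.022, with a confidence interval from -0.70 to 0.65 (limma adjusted p = 0.994), and it had no steady sign: it was 0.015 under quantile normalization and 0.41 without FAD replicate 2. Of all tested probe sets 5.84% were at least this far apart between the replicate numbers, averaged over the treatments.

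GLR3.3, a channel gene of the phloem, was the 1 of 6 phloem markers with a probe set named in the annotation. It read 551.3 and 440.3 on FAD, against 872.2 and 764.6 in mock leaves (log2 fold change -0.73, limma adjusted p = 0.504). Its groups did not overlap, with FAD lower, as for 15% of all tested probe sets. Of the clade III genes, SWEET13 and SWEET10 had the same direction, while SWEET11 overlapped (log2 fold change -0.022). SWEET4, which is used in veins, went the other way without overlap (log2 fold change 0.20). The part of phloem cell number in the values of these genes was not tested. FMA, a guard cell regulator, was the 1 of 3 guard cell markers with a probe set named there. It read 160.3 and 255.9 on FAD and 137.1 and 133.3 in mock leaves (log2 fold change 0.58, limma adjusted p = 0.763). Both FAD arrays lay above both mock arrays, as for 22% of all tested probe sets.

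The clade IV genes of the tonoplast overlapped between the treatments. SWEET16 (AT3G16690), a vacuolar carrier of hexoses and sucrose, read 476 and 580.1 on FAD and 467.4 and 506.6 in mock leaves. Its log2 fold change was 0.11, with a confidence interval from -0.34 to 0.57 (limma adjusted p = 0.945), and without FAD replicate 2 it was -0.032. SWEET17 (AT4G15920), the vacuolar fructose carrier, read 1838 and 2096 on FAD and 2178 and 1456 in mock leaves. The highest and the lowest of these 4 signals were both from mock leaves. On the log2 scale the difference of 0.14 had an interval from -0.38 to 0.66 (limma adjusted p = 0.936) and was -0.15 without mock replicate 2 and 0.046 without FAD replicate 2. Of the 3 genes for tonoplast proteins, SWEET2 was lower on both FAD arrays. The intervals of SWEET16 and SWEET17 reach from a ratio of FAD over mock of 0.769 to one of 1.58. Differences between the contrasts of these 3 genes were not tested.

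**Figure D3:**
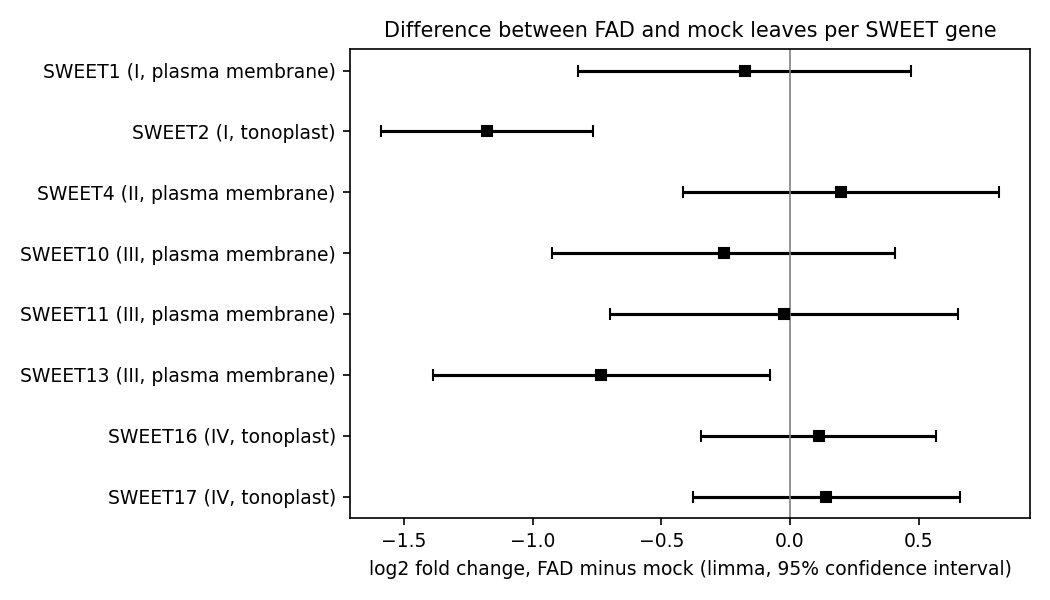
Log2 fold change, FAD minus mock, of each SWEET gene with its 95% confidence interval from limma (2 arrays per treatment); clade and membrane stand in brackets. The intervals of SWEET2, from -1.59 to -0.77, and SWEET13, from -1.39 to -0.08, lie below 0 before any adjustment for the number of probe sets tested, and those of the other 6 genes hold 0.

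In the main limma fit, 0 of the 8 SWEET genes were called lower and 0 higher on FAD. Over all tested probe sets that fit called 0.0366% lower and 0% higher. At an unadjusted p under 0.05, 2 of the 8 were lower, SWEET2 and SWEET13, and 0 higher, where 3.84% of all tested probe sets were lower and 3.03% higher. For 3 of the 8 genes both mock arrays lay above both FAD arrays, where 15% of all tested probe sets did so; for 1 they lay below, where 22% did so, and for the other 4 the treatments overlapped. The log2 fold change was negative for 5 of the 8 genes and for 42.5% of all tested probe sets. The median was -0.099 over the 8 and 0.05 over all tested probe sets. For 6 of the 8 genes the log2 fold change was less than 0.3 from 0, as for 70.1% of all tested probe sets.

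**Figure D4:**
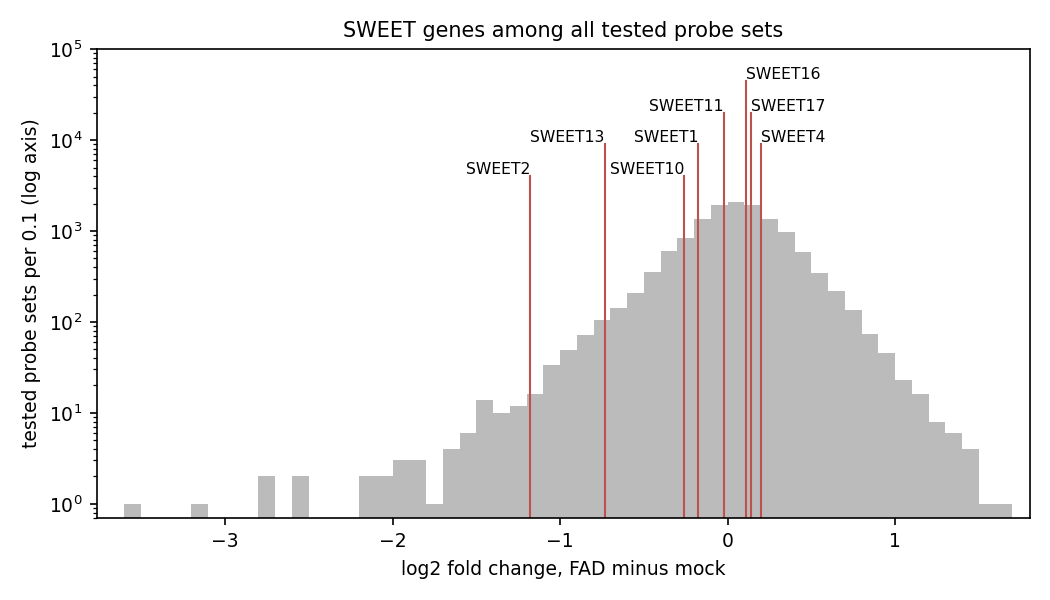
Histogram of the log2 fold changes, FAD minus mock, of the 13648 tested probe sets (log axis of counts), with the 8 SWEET genes as red lines. SWEET2 at -1.18 stands in the lower tail with 0.513% of probe sets at or below it, SWEET13 at -0.73 has 2.18%, and the other 6 lie in the body of the distribution.

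The replicates of a treatment differed by as much as the treatments for some of the genes. The signed difference between the replicate numbers was averaged over the treatments. In size this mean was larger than the difference between FAD and mock for SWEET11, SWEET16 and SWEET17, that is 3 of 8 genes, as for 50.8% of all tested probe sets. Opposite differences cancel in it, so it does not measure the spread within a treatment. SWEET1 is not among the 3, though its replicates differed by -0.17 on FAD and 0.29 in mock leaves and its treatments by -0.18. For SWEET2 the log2 difference between replicate 2 and replicate 1 was 0.011 on FAD and 0.052 in mock leaves, and 90.3% of tested probe sets had a mean difference at least that large. SWEET4 had 0.066 on FAD and -0.071 in mock leaves. SWEET17 had 0.19 on FAD and -0.58 in mock leaves. Replicate 2 minus replicate 1 had the same sign in both treatments for 4 of the 8 genes, SWEET2, SWEET10, SWEET11 and SWEET16, and for 58% of all tested probe sets.

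**Figure D5:**
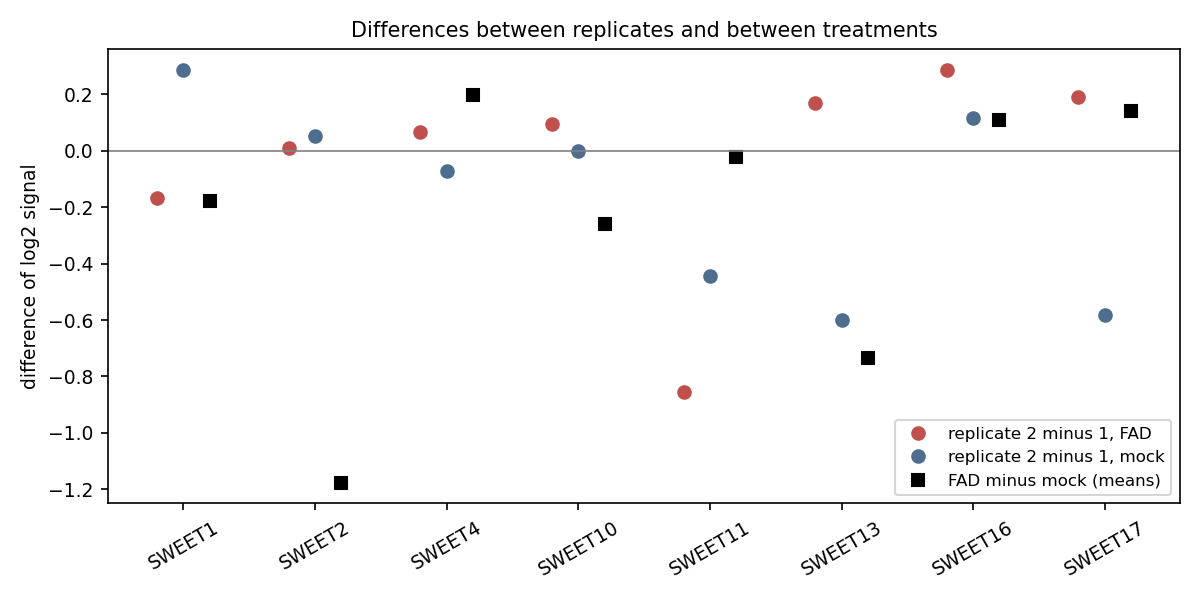
For each SWEET gene, the log2 signal of replicate 2 minus replicate 1 on FAD (red circles) and in mock leaves (blue circles), and the mean of FAD minus mock (black squares). For SWEET2 the treatments differ by -1.18 and the replicates by 0.011 and 0.052; for SWEET11 the treatments differ by -0.022 and the replicates by -0.86 on FAD and -0.44 in mock leaves.

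Other genes with a profile like that of a SWEET gene were sought among tested probe sets with 1 gene name, by the distance between log2 signals of the 4 arrays after each profile was centred on its mean. The nearest to SWEET2 were AT2G16365 at a distance of 0.12, AT5G53020 at 0.19 and AT3G44450 at 0.19, out of 1843 compared. AT2G16365 read 286.4 and 262.2 on FAD and 614.4 and 598.8 in mock leaves, and AT3G44450 read 1237 and 1045 on FAD and 2662 and 2752 in mock leaves. Within a distance of 0.5 of SWEET2 there were 54 probe sets. The nearest to SWEET13 were AT3G52740 at 0.092 and AT4G16140 at 0.13, and 170 of 3342 lay within 0.5. The nearest to SWEET11 was UGT72E1, a glucosyltransferase gene, at 0.062, which read 486.6 and 256.5 on FAD and 431.4 and 314.2 in mock leaves. With 4 arrays many probe sets share a profile, and the distances are a description.

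The other genes of sugar transport and sucrose metabolism were covered thinly. The 9 lists of carriers and enzymes held 79 loci, of which 17 could be named on the array and 12 passed the filter. The sucrose carrier, sucrose synthase and hexokinase lists, 3 of the 9, had none named in the annotation, and the 1 named gene of the polyol and inositol carrier list was below the filter. In limma 0 of the 12 were called lower and 0 higher, 0 had an unadjusted p under 0.05, and the median log2 fold change was -0.031, against 0.05 over all tested probe sets. The tested genes had 5 positive and 7 negative values, and for 3 of the 12 the treatments did not overlap, where 15% of all tested probe sets had FAD below mock and 22% FAD above mock on all arrays.

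Carriers of the tonoplast, where SWEET2, SWEET16 and SWEET17 also lie, gave 5 tested genes with log2 fold changes between -0.26 and 0.21. TMT1, which loads hexoses into the vacuole, read 492.2 and 366.4 on FAD and 413.2 and 325.9 in mock leaves, a log2 fold change of 0.21 (limma adjusted p = 0.888). SFP2, of the same list, had -0.23 (limma adjusted p = 0.891), and AT5G17010 had -0.26 (limma adjusted p = 0.841). SFP1 and TMT2 had 0.12 and -0.032. Among the listed plasma membrane hexose carriers AT5G61520 read 378.7 and 216.1 on FAD and 202.8 and 176.2 in mock leaves, 0.60 on the log2 scale with an interval from -0.10 to 1.30 (limma adjusted p = 0.765). AT1G34580 of the same list had 0.26.

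In the plastid carrier list AT5G59250 read 1295 and 1410 on FAD and 1235 and 1226 in mock leaves, a log2 fold change of 0.13, and AT5G17630 had -0.064. The sucrose phosphate synthase gene ATSPS4F read 763.9 and 994.6 on FAD and 968.5 and 828.7 in mock leaves, -0.040 on the log2 scale with an interval from -0.51 to 0.43. AT2G35840 of the sucrose synthesis list had -0.033, and AT1G62660 of the invertase list had -0.029. These 5 genes had limma adjusted p between 0.904 and 0.987.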

How the data were processed

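Biotin-labelled RNA was made from total RNA with a kit that primes at the 3' end, per the labels' protocols. Each deposited value is the linear intensity of 1 probe set on 1 array from GCOS, per the submitters' processing notes; neither its version nor its algorithm is given in the sources used here. The 2% trimmed means of the arrays differed by 0.000764%, so the authors' scaling was kept. Such scaling cannot show a change in total mRNA. Precision is limited by the number of arrays.

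Intensities were log2 transformed with no added constant. After removal of 64 control probe sets, the test took every probe set whose mean log2 signal reached the 40th percentile. The treatments were compared by limma 3.58.1 (R 4.3.3; lmFit, eBayes with a mean-variance trend; 2 residual and 5.43 prior degrees of freedom), with Benjamini-Hochberg adjustment over all tested probe sets and a threshold of 0.05. The fit was run on simulated data with independent errors and no replicate effect, and the share of changes recovered there is not given here. No exact permutation test was run, since 2 arrays against 2 cannot pass 0.05 in one. Nothing says that replicates came from separate plants, so p-values measure the spread between these samples.

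Names came from the platform annotation, with loci matched by gene ID to the TAIR10.1 reference table: 13513 probe sets had 1 gene, 503 several, and 8730 were not listed; 13436 of the 13513 matched. The files name no build, so no coordinates are given. Clades and membranes are background knowledge. The named genes were the 8 SWEET genes, up to 3 tested genes per other list by moderated t, with SFP1, TMT2 and all cell type markers that had a probe set named besides, SFP1 and TMT2 after their values were seen, and the nearest profiles with at least 0.5 times the SWEET gene's standard deviation. The members and lists were chosen with earlier results of these data known. Alternatives were quantile normalization, median centring over tested probe sets, a constant of 32, a filter at the 60th percentile and none, array weights, a robust prior, a prior without trend, unmoderated variances, a replicate block and omission of each array. The counts of probe sets whose treatments do not overlap were chosen after seeing the data.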

Additional observations from a re-analysis of the deposited data

How the results depend on the processing

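SWEET2 stayed lower on FAD in all 14 alternatives, with log2 fold changes from -1.21 to -1.11. The other filters, array weights, other variance settings and the replicate block left it at -1.177. Its treatments do not overlap, so neither omission of 1 array nor the added constant could change its sign. Only quantile normalization and median centring could have done so. In the moderated fits with all 4 arrays limma adjusted p ran from 0.0036 to 0.377. SWEET2 passed in 1 of the 14 alternatives, the fit with the replicate block (-1.177, limma adjusted p = 0.0036). In that fit 1 SWEET gene was called lower, and 153 probe sets were called lower and 36 higher in all. What a replicate number shares is not stated in the labels. The difference between replicate 2 and replicate 1 correlated at 0.219 between FAD and mock leaves across tested probe sets. Log2 signals correlated at 0.978 between the arrays numbered 1 and at 0.970 between those numbered 2. Within a treatment they correlated at 0.975 on FAD and 0.975 in mock leaves. Whether samples of 1 number form pairs cannot be told from these values, and the main fit has no replicate term. SWEET1, SWEET10 and SWEET13 stayed negative and SWEET4 positive in all 13 of their alternatives. Much of this too was fixed beforehand, since the settings that left SWEET2 at its main value did so for these genes. Omission of 1 array could have changed the sign for SWEET1 alone, as the treatments of the others do not overlap. Their steady signs are therefore not read as a result. These 4 genes were below the filter at the 60th percentile. Leaving out 1 array gave SWEET11 values from -0.4496 to 0.4058, SWEET16 values from -0.03175 to 0.2534 and SWEET17 values from -0.1501 to 0.431, and SWEET11 had 0.01458 under quantile normalization. With 1 array left out SWEET13 ran from -1.03 to -0.43 and SWEET1 from -0.32 to -0.033. The cause of these shifts was not tested. The 5 probe sets called lower over the whole table became 11 after median centring, 2 without a filter, 2 at the 60th percentile, 0 when the prior had no trend and 0 with unmoderated variances; omission of 1 array gave 1 to 4 lower and 0 to 1 higher, the 1 without mock replicate 1. The other sugar genes had 0 called in every alternative. No other probe set of a SWEET gene described was named in the annotation, so that alternative was not run.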
